A study of Mus musculus with 12 samples.

Results

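Solute carriers are membrane proteins that move amino acids, sugars, organic ions, metals and other small molecules across the cell surface and the membranes of organelles. The set described here holds 37 solute carrier genes, read by 41 probe sets (spots of short probes for 1 transcript) of the 32115 tested on each array. A probe set entered when its single gene symbol was Slc followed by a digit in any of 3 lists that the authors deposited at a false discovery rate of about 5% (5.18% for Apc against WT, 5.15% for ApcMyc against Apc and 5.04% for ApcMyc against WT). Slc1a2, Slc1a4, Slc10a1 and Slc4a1 were left out (8 probe sets), as was 1 probe set that carried a further symbol. In the authors' deposited table the list of ApcMyc against WT held 40 of the 41 probe sets, that of Apc against WT held 3 and that of ApcMyc against Apc held 1. The members were therefore chosen almost wholly for a difference between ApcMyc and WT, and their differences in these 3 comparisons are descriptions. Solute carriers outside the lists carry no name here, so the 37 genes are not the family.

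RNA was taken from livers in 4 groups of 3 arrays, and every mouse carried AhCre, in which a Cyp1a1 promoter that responds to beta-naphthoflavone drives Cre recombinase. The groups were AhCre-positive wild-type controls (WT), homozygous floxed Apc (Apc), homozygous floxed Myc (Myc) and both (ApcMyc). Per the labels all mice received 3 doses of 80 mg/kg of the inducer in 1 day and were sampled on day 4, so WT livers also carried Cre and met the inducer; the labels give no age, sex or strain. Loss of Apc lets beta-catenin build up and switch on Wnt target genes, and Myc is a growth-promoting transcription factor. In liver, Wnt signalling marks the hepatocytes around the central vein, and many transporters are spread unevenly between these and the hepatocytes around the portal vein. Each title carries a sample code of its own, but nothing says what the codes mark; p-values rest on the spread between arrays, which may be technical.

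Values are log2 levels, that is log2 of the recovered and quantile normalized array signal plus 16, so the lowest possible level is 4 and differences of dim genes are understated. The median level of an array was 6.29. The median signal before normalization was 35.4 to 53.7 for WT and Apc, 59.5 to 78.9 for Myc and 86.5 to 106.9 for ApcMyc. The titles of WT and Apc share 1 style and those of Myc and ApcMyc another, so a difference of title style and Myc deletion cannot be told apart. Myc itself averaged 6.07 in WT, 8.80 in Apc, 5.22 in Myc and 5.45 in ApcMyc. Its difference of -0.85 in Myc against WT did not pass (limma, adjusted p = 0.0833), while that of -3.35 in ApcMyc against Apc did (5.08e-05). The Apc gene is not named in the lists. Among the marker genes that the lists name, 8 of 9 periportal genes summed to 33556 to 37993 signal units in WT and 34057 to 36238 in Myc, against 2572 to 5582 in Apc and 5257 to 7582 in ApcMyc. Of 9 pericentral genes 5 were named, summing to 2619 to 2854 in WT, 3480 to 3850 in Myc, 16638 to 18117 in Apc and 12729 to 15065 in ApcMyc. The 3 named macrophage genes of 8 summed to 489.7 to 1362 in WT, 563.9 to 886.0 in Apc, 1625 to 2161 in Myc and 1811 to 2486 in ApcMyc. The 4 named endothelial genes of 8 summed to 253.5 to 620.9 in WT, 313.6 to 507.1 in Apc, 507.7 to 524.4 in Myc and 985.2 to 1124 in ApcMyc. Of these Pecam1 averaged higher in Myc (6.97) than in ApcMyc (6.56). Lymphocyte genes (2 of 8 named) ran from 52.2 to 119.1 in WT, 56.3 to 65.1 in Apc, 137.9 to 150.4 in Myc and 156.4 to 274.1 in ApcMyc, while no cholangiocyte or stellate marker is named. The 4 named red cell genes of 8 summed to 1309 to 1386 in WT, 1239 to 2113 in Apc, 840.5 to 1017 in Myc and 1822 to 2347 in ApcMyc, a sum of opposite moves. Of these Alas2, Car1 and Klf1 were lower with Apc deleted (-2.40, -1.79 and -1.13 with Myc intact, -1.06, -1.20 and -1.31 with Myc deleted), and Car2 was higher (3.61 and 3.24). Only 3 of 8 hepatocyte markers are named, summing to 35725 to 36426 in WT, 30426 to 32346 in Apc, 29507 to 31395 in Myc and 14973 to 19191 in ApcMyc. They fell unevenly. Apob, Apoa1 and Serpina1a differed by -2.19, -0.52 and -0.49 in ApcMyc against Apc, and by -1.93, -0.35 and -1.06 in ApcMyc against Myc. Serpina1a is read by a probe set of a type that can match several transcripts. The part of cell composition in the values below was not tested, and fewer cells of a type and less RNA per cell cannot be told apart.

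With Apc deleted, single carriers of many substrate classes stood higher or lower whether Myc was intact or deleted, among them the organic cation carrier Slc22a3 (higher) and the organic anion carrier Slc22a7, the manganese exporter Slc30a10 and the cystine carrier subunit Slc3a1 (lower). Carriers of a like substrate did not all move together. Among carriers of neutral amino acids, Slc1a5 was higher and Slc38a4 lower in ApcMyc than in Myc (differences 1.43 and -0.87). The cystine carrier Slc7a11 differed by 0.28 between Apc and WT and by 0.06 between ApcMyc and Myc, with no call in either. Slc7a11 was dim, with group means from 4.51 to 4.79 beside a lowest possible level of 4, so it cannot show whether it moved with Slc3a1. In 14 of the 37 genes every Apc and ApcMyc array lay on one side of every WT and Myc array, 6 above and 8 below; over all tested probe sets 7.6% did. The 6 were Slc22a3, Slc16a10, Slc1a5, Slc13a3, Slc16a5 and Slc16a7, and the 8 included Slc22a7, Slc3a1, Slc30a10, Slc17a2, Slc38a4, Slc27a2 and Slc27a5. This separation includes that of ApcMyc from WT, for which nearly all members were chosen. Its share among the other listed probe sets was not computed. The largest separation was that of Slc22a3, which was 25.5-fold higher in ApcMyc than in Myc, and the largest fall in that comparison was that of Slc3a1, at 9.06-fold.

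**Figure D1:**
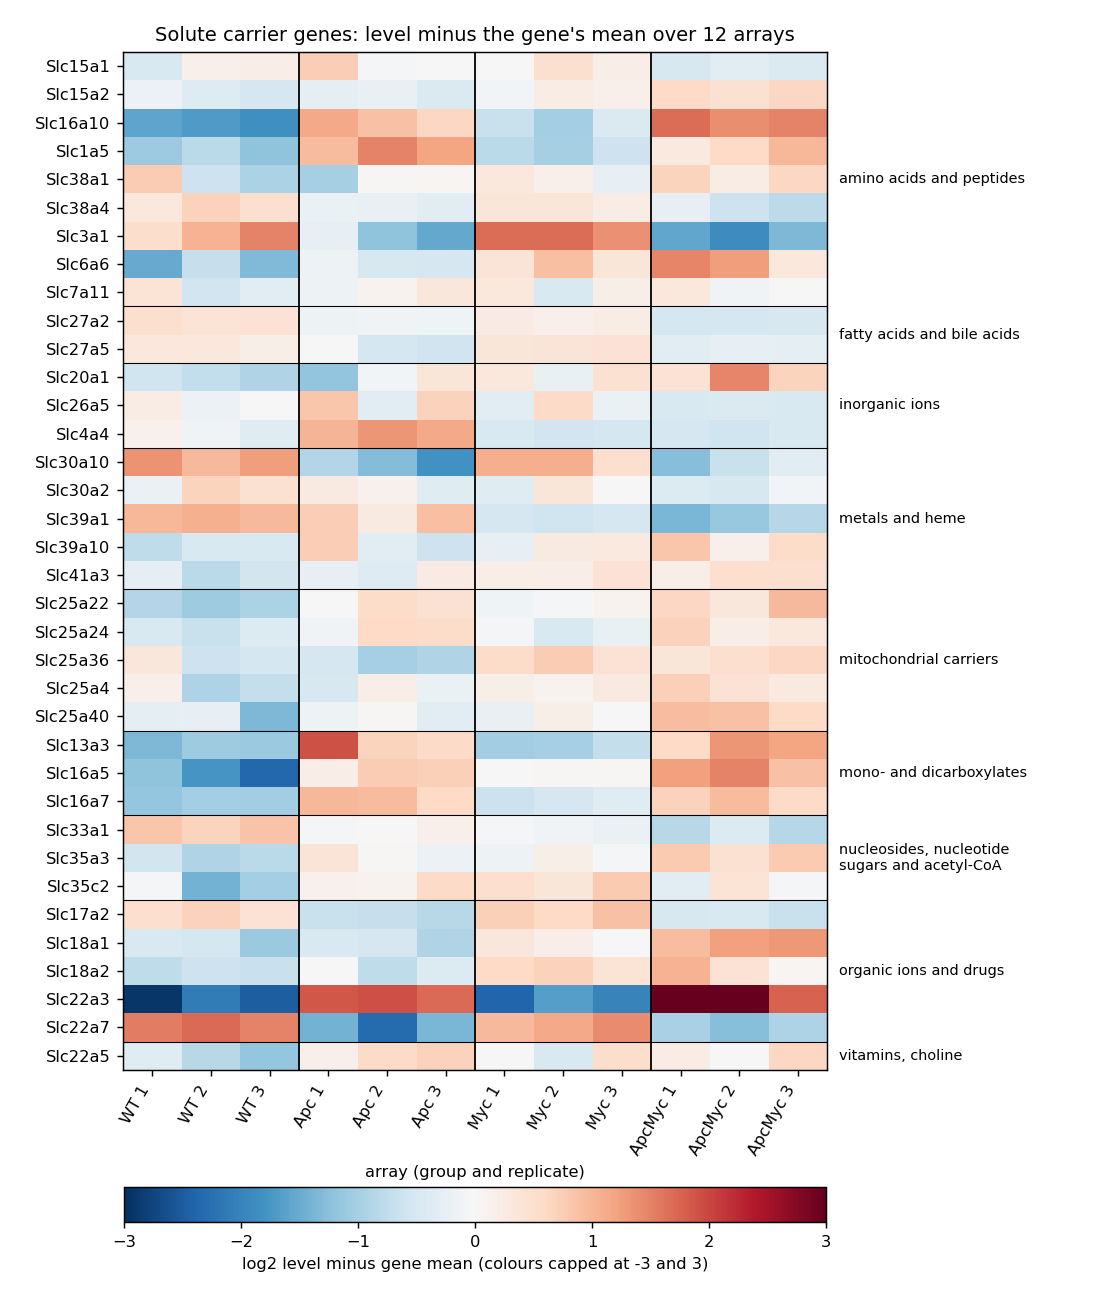
Heat map of 36 solute carrier genes (rows, grouped by substrate) in the 12 arrays (columns, by group and replicate); colour is the log2 level minus the gene's mean over the 12 arrays, red above and blue below. Slc22a3 and Slc16a10 are red in all 6 Apc-deleted arrays, Slc22a7 and Slc30a10 are blue there, and Slc39a1 is red in all 6 arrays with Myc intact.

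The comparison of ApcMyc with Myc asks what Apc loss does where Myc is deleted. The lists were not drawn from it, although the ApcMyc arrays served to choose the members. Of the 41 probe sets 10 rose and 11 fell in it at an adjusted p under 0.05, which is 51.2% beside 13.4% of all probe sets tested (6.64% up and 6.76% down). Of the other 2476 listed probe sets with 1 symbol, chosen in the same way, 46.4% were called, so the share among the carriers was close to that of listed genes in general. The counts by substrate class given below for this comparison stand beside these same shares, and no class holds more than 9 genes. Taking the brighter probe set where a gene had 2, 9 genes rose and 9 fell, and the median difference over the 37 was 0.12, against -0.02 over all probe sets. The arrays of the 2 groups did not overlap in 25 of the 37 genes (35.7% of all probe sets); in Apc against WT they did not in 23 (31.5%). Of the 18 genes called in ApcMyc against Myc, 17 were also called in Apc against WT, 8 up in both and 9 down in both. Apc against WT called 15.6% of all probe sets (7.87% up and 7.68% down) and 47.7% of the other listed ones. These shares are not restricted to probe sets called in ApcMyc against Myc, so they are no like measure. The choice of members also used Apc against WT. The differences in the 2 comparisons, which share no array, had the same sign in 32 of 37 genes (86.5%), beside 60.4% over all probe sets and 81.8% over the listed probe sets with 1 symbol.

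**Figure D2:**
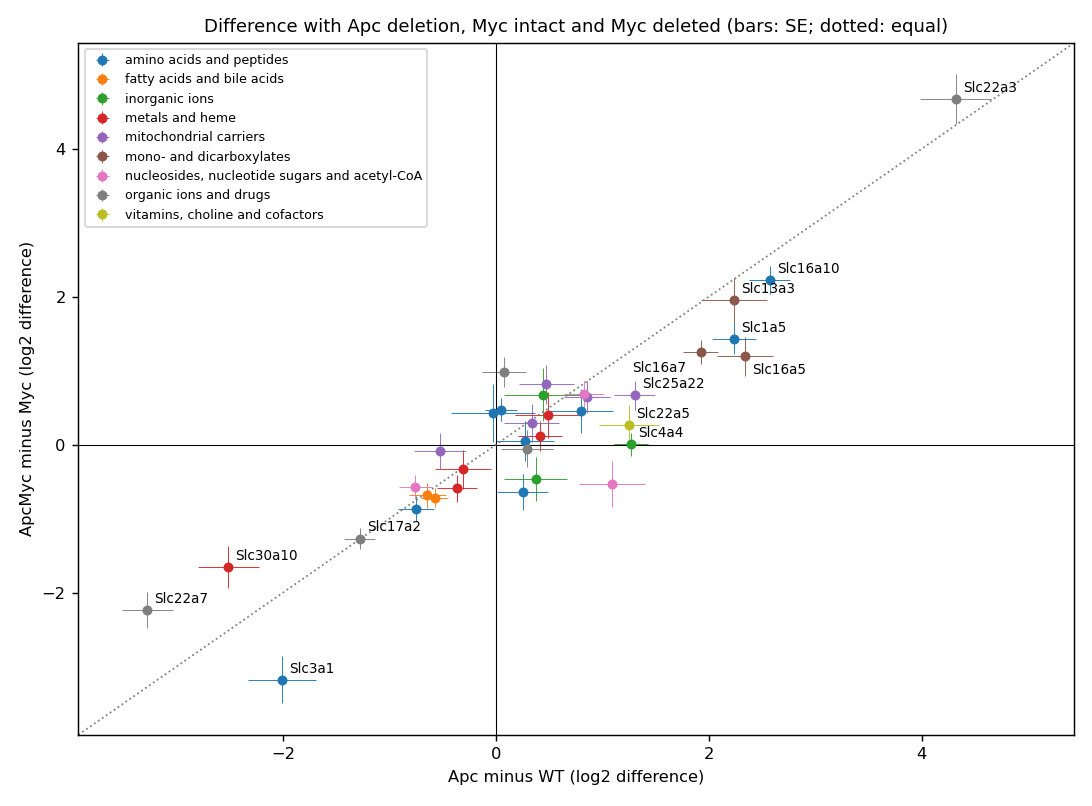
Scatter of the difference Apc minus WT (x axis, log2) against ApcMyc minus Myc (y axis, log2) for 36 genes, coloured by substrate, with SE bars and a dotted line of equal differences; genes past 1.2 on either axis are labelled. Slc22a3 lies at the upper right at 4.32 and 4.67, Slc22a7 and Slc3a1 at the lower left, and Slc4a4 near 0 on the y axis at 1.27 on the x axis.

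Among the 5 carriers of organic ions and drugs, 2 rose and 2 fell in ApcMyc against Myc. Slc22a3 is a low-specificity transporter of organic cations, including monoamines. Slc22a3 read 5.70, 6.52 and 6.14 in the WT arrays and 10.47, 10.54 and 10.31 in the Apc arrays. With Myc deleted, Slc22a3 read 6.24, 6.97 and 6.62 in the Myc arrays and 11.62, 11.83 and 10.39 in the ApcMyc arrays. All 6 Apc-deleted arrays were above 10 and the other 6 below 7, and the rise in ApcMyc over Myc was the largest of the set (difference 4.67, SE 0.337, adjusted p = 8.93e-06). Slc22a7, which carries organic anions at the sinusoidal membrane of hepatocytes, went the other way. Slc22a7 read 10.55, 10.71 and 10.50 in the WT arrays and 7.59, 6.70 and 7.64 in the Apc arrays. With Myc deleted, Slc22a7 read 9.98, 10.14 and 10.42 in the Myc arrays and 8.04, 7.72 and 8.09 in the ApcMyc arrays. The groups did not overlap, and Slc22a7 fell 4.7-fold in ApcMyc against Myc (difference -2.23, SE 0.239, adjusted p = 0.00011). Slc17a2, of a family that carries phosphate and organic anions, was lower in all 6 Apc-deleted arrays. Slc17a2 stood at 10.69, 10.86 and 10.62 in the WT arrays and 9.50, 9.49 and 9.34 in the Apc arrays. With Myc deleted, Slc17a2 stood at 10.90, 10.78 and 11.05 in the Myc arrays and 9.69, 9.72 and 9.50 in the ApcMyc arrays. Its fall in ApcMyc against Myc was 2.41-fold (difference -1.27, SE 0.147, adjusted p = 0.000193), and the dimmer of its probe sets gave -1.16. In Myc against WT the difference was 0.18 in the brighter probe set and -1.12 in the dimmer, and only the dimmer was called.

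The vesicular monoamine carriers Slc18a1 and Slc18a2 pack amines into secretory vesicles. Slc18a1 read 6.50, 6.43 and 5.84 in the WT arrays and 6.51, 6.45 and 6.06 in the Apc arrays. With Myc deleted, Slc18a1 read 7.29, 7.16 and 6.95 in the Myc arrays and 7.89, 8.19 and 8.25 in the ApcMyc arrays. Slc18a1 was highest in all 3 ApcMyc arrays and overlapped between WT and Apc. It rose in ApcMyc against Myc (difference 0.98, SE 0.208, adjusted p = 0.00832) and in Myc against WT (difference 0.87, SE 0.208, adjusted p = 0.0235). The rise in Myc was not called without Myc replicate 1 (0.0841), without Myc replicate 2 (0.0761) and without WT replicate 3 (0.0831), values in brackets being adjusted p. Slc18a2 was near the lower limit, at 4.11, 4.24 and 4.21 in the WT arrays and 4.87, 4.10 and 4.46 in the Apc arrays. With Myc deleted, Slc18a2 read 5.46, 5.57 and 5.29 in the Myc arrays and 5.92, 5.30 and 4.93 in the ApcMyc arrays. Every Myc and ApcMyc array exceeded every WT and Apc array, and Slc18a2 rose in Myc against WT (difference 1.25, SE 0.247, adjusted p = 0.00966); its difference of -0.05 in ApcMyc against Myc did not pass (adjusted p = 0.917). The summed macrophage and lymphocyte markers were higher in the same 6 arrays, in the ranges given above. In Myc against WT the markers Cd68, Lyz2 and Nkg7 were called up (1.13, 1.53 and 1.12), while Marco and Gzma were not called (0.46 and 0.48). The part of these cells in the values of Slc18a1 and Slc18a2 was not tested. Slc22a5, a carnitine transporter, was grouped with vitamins and cofactors. Slc22a5 read 8.68, 8.20 and 7.87 in the WT arrays and 9.19, 9.61 and 9.72 in the Apc arrays. With Myc deleted, Slc22a5 read 9.05, 8.57 and 9.55 in the Myc arrays and 9.25, 9.03 and 9.66 in the ApcMyc arrays. Every Apc array exceeded every WT array, by a mean of 1.25, while Myc and ApcMyc overlapped and did not pass (difference 0.26, SE 0.281, adjusted p = 0.598). Myc against WT passed only with median scaling (adjusted p = 0.0293, against 0.0941).

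**Figure D3:**
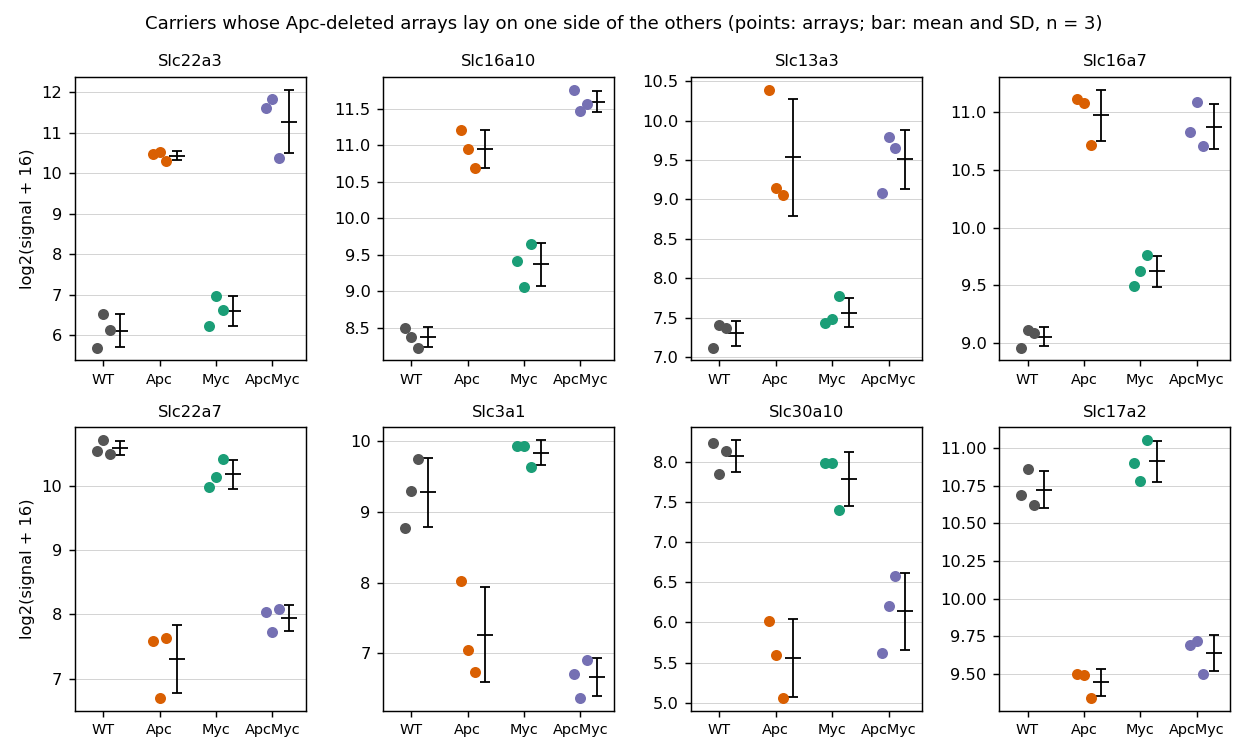
Level in each array, log2(signal + 16), of 4 carriers that stood higher with Apc deleted (upper row: Slc22a3, Slc16a10, Slc13a3, Slc16a7) and 4 that stood lower (lower row: Slc22a7, Slc3a1, Slc30a10, Slc17a2); points are arrays, bars mean and SD of 3, and each panel has its own axis. In every panel the Apc and ApcMyc points lie on one side of the WT and Myc points.

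All 3 genes placed by family among the carriers of mono- and dicarboxylates rose in ApcMyc against Myc. Slc13a3 takes up dicarboxylates such as succinate together with sodium. Slc13a3 read 7.12, 7.41 and 7.37 in the WT arrays and 10.39, 9.15 and 9.06 in the Apc arrays. With Myc deleted, Slc13a3 read 7.43, 7.48 and 7.77 in the Myc arrays and 9.08, 9.79 and 9.66 in the ApcMyc arrays. The lowest Apc-deleted array was above the highest of the others, and the rise was 3.87-fold (difference 1.95, SE 0.31, adjusted p = 0.00156). Slc16a7 carries pyruvate and lactate with protons. Slc16a7 read 8.96, 9.11 and 9.09 in the WT arrays and 11.12, 11.08 and 10.72 in the Apc arrays. With Myc deleted, Slc16a7 read 9.49, 9.62 and 9.76 in the Myc arrays and 10.83, 11.09 and 10.71 in the ApcMyc arrays. Its groups did not overlap, and it rose by 1.25 in ApcMyc against Myc (SE 0.166, adjusted p = 0.000469). In Myc against WT it did not pass (difference 0.57, SE 0.166, adjusted p = 0.0504) but did with median scaling (0.0169), pseudocount 64 (0.0175), an intensity trend (0.0154) and without the low probe sets (0.0183). Slc16a5 was placed in this class because it belongs to the same family, and its own substrates were not checked. Slc16a5 read 5.97, 5.42 and 4.82 in the WT arrays and 7.39, 7.95 and 7.90 in the Apc arrays. With Myc deleted, Slc16a5 read 7.16, 7.21 and 7.21 in the Myc arrays and 8.42, 8.68 and 8.06 in the ApcMyc arrays. The ordering was WT, then Myc and Apc, then ApcMyc, and Slc16a5 rose both in ApcMyc against Myc (difference 1.19, SE 0.266, adjusted p = 0.0109) and in Myc against WT (difference 1.79, SE 0.266, adjusted p = 0.00228). The rise in ApcMyc was not called on the deposited scores (0.0857) and with pseudocount 1 (0.0641).

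Of 9 carriers of amino acids and peptides, 2 rose and 2 fell in ApcMyc against Myc. That is 44.4%, beside 13.4% of all probe sets and 46.4% of the other listed ones. Slc16a10 lets aromatic amino acids leave the cell down their gradient. Slc16a10 read 8.5, 8.38 and 8.23 in the WT arrays and 11.21, 10.95 and 10.69 in the Apc arrays. With Myc deleted, Slc16a10 read 9.41, 9.06 and 9.65 in the Myc arrays and 11.76, 11.47 and 11.57 in the ApcMyc arrays. It rose 4.68-fold in ApcMyc against Myc (difference 2.23, SE 0.192, adjusted p = 2.48e-05), and every Apc-deleted array lay above the others. Its second probe set also rose there (1.53) and stood 2.06 higher in Apc than in WT. Myc against WT was called in the brighter probe set (difference 1, SE 0.192, adjusted p = 0.00825) and not in the dimmer (0.20). Slc1a5 exchanges glutamine and other neutral amino acids. Slc1a5 read 5.76, 6.05 and 5.65 in the WT arrays and 7.81, 8.33 and 8.04 in the Apc arrays. With Myc deleted, Slc1a5 read 6.05, 5.86 and 6.23 in the Myc arrays and 7.15, 7.45 and 7.84 in the ApcMyc arrays. Slc1a5 rose 2.7-fold in ApcMyc against Myc (difference 1.43, SE 0.209, adjusted p = 0.000906), and no Apc-deleted array overlapped the others.

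Slc3a1 is the heavy chain of the cystine and dibasic amino acid exchanger. Slc3a1 read 8.78, 9.30 and 9.75 in the WT arrays and 8.02, 7.05 and 6.73 in the Apc arrays. With Myc deleted, Slc3a1 read 9.94, 9.94 and 9.64 in the Myc arrays and 6.71, 6.37 and 6.91 in the ApcMyc arrays. The fall in ApcMyc against Myc was 9.06-fold (difference -3.18, SE 0.317, adjusted p = 6.54e-05), and the groups did not overlap in either pair. The spread was wide within WT and within Apc, with an SD of 0.486 and 0.672. Slc38a4, a sodium-coupled carrier of neutral amino acids, was a bright signal in liver. Slc38a4 read 11.79, 12.18 and 11.97 in the WT arrays and 11.28, 11.26 and 11.14 in the Apc arrays. With Myc deleted, Slc38a4 read 11.84, 11.85 and 11.71 in the Myc arrays and 11.23, 10.86 and 10.71 in the ApcMyc arrays. It fell 1.82-fold in ApcMyc against Myc (difference -0.87, SE 0.169, adjusted p = 0.00529). Slc6a6, the taurine transporter, differed with Myc deletion or title style. Slc6a6 read 4.49, 5.29 and 4.67 in the WT arrays and 5.84, 5.51 and 5.5 in the Apc arrays. With Myc deleted, Slc6a6 read 6.37, 6.90 and 6.35 in the Myc arrays and 7.45, 7.24 and 6.30 in the ApcMyc arrays. Every Myc and ApcMyc array exceeded every WT and Apc array, and Slc6a6 rose in Myc against WT (difference 1.72, SE 0.298, adjusted p = 0.00503). The Apc arrays of Slc6a6 also lay above its WT arrays without overlap, a difference of 0.80 that was not called. The peptide transporter Slc15a1 was dim throughout. Slc15a1 read 4.11, 4.71 and 4.76 in the WT arrays and 5.29, 4.5 and 4.54 in the Apc arrays. With Myc deleted, Slc15a1 read 4.56, 5.05 and 4.75 in the Myc arrays and 4.09, 4.23 and 4.12 in the ApcMyc arrays. All ApcMyc arrays lay below the Apc and Myc arrays, and the difference from Myc did not pass (difference -0.64, SE 0.241, adjusted p = 0.104), except with only these groups fitted (adjusted p = 0.042). Slc15a2, Slc38a1 and Slc7a11, which carry peptides, glutamine and cystine, had means between 4.51 and 5.79 in all groups and passed neither test, except Slc15a2 in ApcMyc against Myc with median scaling (difference 0.54, adjusted p = 0.0424); Slc15a2 and Slc38a1 are read by probe sets of a type that can match several transcripts.

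Promoters of 6 genes that separated by Apc deletion are shown for comparison, 3 that stood higher and then 3 that stood lower, each being the gene's only entry in the table used. They run from 250 bases before to 50 after the start in RefSeq for build GRCm38.p6, 5′ to 3′ on the gene's strand. Capitals mark the motifs searched on both strands: CTTTGAT and CTTTGAA, forms of the site of TCF factors that work with beta-catenin, and CACGTG, the E-box that Myc can bind.
Slc22a3 promoter, chr17:12507655-12507954, minus strand: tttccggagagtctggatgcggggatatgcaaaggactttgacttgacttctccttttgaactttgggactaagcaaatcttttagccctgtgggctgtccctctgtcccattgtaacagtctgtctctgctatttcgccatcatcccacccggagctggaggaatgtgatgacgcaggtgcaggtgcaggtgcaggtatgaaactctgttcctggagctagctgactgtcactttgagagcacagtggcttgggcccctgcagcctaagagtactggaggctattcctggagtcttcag
Slc16a10 promoter, chr10:40142205-40142504, minus strand: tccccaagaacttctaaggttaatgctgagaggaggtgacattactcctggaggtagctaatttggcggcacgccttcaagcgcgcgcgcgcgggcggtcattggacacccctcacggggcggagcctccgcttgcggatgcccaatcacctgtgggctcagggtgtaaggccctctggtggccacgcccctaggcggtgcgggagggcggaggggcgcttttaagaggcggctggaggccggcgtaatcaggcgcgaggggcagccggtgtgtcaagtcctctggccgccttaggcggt
Slc13a3 promoter, chr2:165473148-165473447, minus strand: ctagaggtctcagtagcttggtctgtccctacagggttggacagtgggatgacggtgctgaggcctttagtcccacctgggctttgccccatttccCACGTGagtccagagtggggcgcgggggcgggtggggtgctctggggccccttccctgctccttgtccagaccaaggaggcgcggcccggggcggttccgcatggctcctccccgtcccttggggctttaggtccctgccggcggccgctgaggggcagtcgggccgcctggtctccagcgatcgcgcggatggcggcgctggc
Slc3a1 promoter, chr17:85028097-85028396, plus strand: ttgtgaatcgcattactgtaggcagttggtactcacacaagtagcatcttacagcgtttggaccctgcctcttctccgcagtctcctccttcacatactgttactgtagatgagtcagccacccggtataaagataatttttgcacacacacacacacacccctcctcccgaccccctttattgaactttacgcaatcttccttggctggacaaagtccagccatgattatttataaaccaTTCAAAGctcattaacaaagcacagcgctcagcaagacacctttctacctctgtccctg
Slc30a10 promoter, chr1:185454598-185454897, plus strand: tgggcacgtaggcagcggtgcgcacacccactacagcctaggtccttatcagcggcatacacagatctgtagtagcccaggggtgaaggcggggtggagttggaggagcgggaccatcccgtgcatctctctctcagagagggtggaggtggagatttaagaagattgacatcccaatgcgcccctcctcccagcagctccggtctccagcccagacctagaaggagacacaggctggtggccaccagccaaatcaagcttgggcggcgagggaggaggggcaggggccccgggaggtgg
Slc17a2 promoter, chr13:23806743-23807042, plus strand: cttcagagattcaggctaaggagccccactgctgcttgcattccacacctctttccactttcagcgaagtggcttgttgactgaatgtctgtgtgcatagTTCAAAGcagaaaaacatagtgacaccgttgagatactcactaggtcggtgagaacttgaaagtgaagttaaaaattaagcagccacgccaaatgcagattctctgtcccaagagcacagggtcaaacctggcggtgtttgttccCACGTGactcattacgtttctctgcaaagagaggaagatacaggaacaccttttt
Slc13a3 held an E-box, Slc3a1 a CTTTGAA (read on the other strand as TTCAAAG) and Slc17a2 both, while the windows of Slc22a3, Slc16a10 and Slc30a10 held none of the 3. Slc27a2 also stood lower and has a single entry, which is not printed and held none of the 3 motifs. The marked motifs do not overlap each other. A TCF form was held by 8.65% and an E-box by 7.15% of all 32851 promoters of this length. Of the 36 promoters of the 28 members found there, 5 held a TCF form (13.9%) and 6 an E-box (16.7%). A match in such a window is a description of letters and not a binding site.

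Both members of the fatty acid and bile acid class fell in ApcMyc against Myc. Slc27a2 imports fatty acids and joins very long chains to coenzyme A. Slc27a2 read 13.25, 13.17 and 13.19 in the WT arrays and 12.62, 12.65 and 12.63 in the Apc arrays. With Myc deleted, Slc27a2 read 13, 12.92 and 12.98 in the Myc arrays and 12.23, 12.24 and 12.28 in the ApcMyc arrays. Its levels stepped down from WT and Myc to Apc and then to ApcMyc with no overlap, and the fall in ApcMyc against Myc was 1.64-fold (difference -0.72, SE 0.127, adjusted p = 0.00309). The difference of -0.24 in Myc against WT did not pass (adjusted p = 0.264) but did on the deposited scores (0.0176) and with an intensity trend (0.046). Slc27a5 is the bile acid coenzyme A ligase of hepatocytes. Slc27a5 read 12.91, 12.90 and 12.76 in the WT arrays and 12.60, 12.06 and 11.99 in the Apc arrays. With Myc deleted, Slc27a5 read 12.94, 12.96 and 13.01 in the Myc arrays and 12.24, 12.33 and 12.30 in the ApcMyc arrays. It fell 1.6-fold (difference -0.68, SE 0.17, adjusted p = 0.0195), with no overlap between Apc-deleted and other arrays. The call on Slc27a5 was lost on the deposited scores (0.143), without ApcMyc replicate 1 (0.0642), without Myc replicate 1 (0.0539), without Myc replicate 2 (0.0599) and without Myc replicate 3 (0.0642).

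Of 5 metal carriers 1 fell in ApcMyc against Myc. Slc30a10 exports manganese from hepatocytes. Slc30a10 read 8.23, 7.85 and 8.13 in the WT arrays and 6.02, 5.59 and 5.06 in the Apc arrays. With Myc deleted, Slc30a10 read 7.98, 7.98 and 7.40 in the Myc arrays and 5.62, 6.21 and 6.58 in the ApcMyc arrays. It fell 3.14-fold (difference -1.65, SE 0.285, adjusted p = 0.00259), and the second probe set fell by 2.53 log2 units and differed by -2.83 between Apc and WT. Slc39a1, a zinc importer of the cell surface, differed with Myc deletion or title style. Slc39a1 read 9.61, 9.68 and 9.59 in the WT arrays and 9.36, 8.90 and 9.53 in the Apc arrays. With Myc deleted, Slc39a1 read 8.12, 8.03 and 8.13 in the Myc arrays and 7.26, 7.49 and 7.77 in the ApcMyc arrays. Slc39a1 was lower in all 6 Myc-deleted arrays and fell 2.9-fold in Myc against WT (difference -1.53, SE 0.186, adjusted p = 0.000726). ApcMyc lay below Myc without overlap but did not pass (difference -0.59, SE 0.186, adjusted p = 0.0544). It passed without ApcMyc replicate 3 (adjusted p = 0.0359), with median scaling (0.0163), pseudocount 64 (0.0331), without the low probe sets (0.0228) and with an intensity trend (0.0298). Slc41a3, of a magnesium transporter family, went from 6.56 ± 0.274 in WT to 7.38 ± 0.142 in Myc (mean ± SD, n = 3; difference 0.82, SE 0.204, adjusted p = 0.0282). That rise was not called without Myc replicate 1 (0.0658), without Myc replicate 2 (0.0688), without Myc replicate 3 (0.1), without WT replicate 2 (0.102) and without WT replicate 3 (0.0758). The zinc carriers Slc30a2 and Slc39a10 were dim, with group means from 4.25 to 5.46, and passed neither test.

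Among the mitochondrial carriers, Slc25a22 rose in ApcMyc against Myc. Slc25a22 carries glutamate. Slc25a22 read 10.02, 9.82 and 9.94 in the WT arrays and 10.90, 11.45 and 11.34 in the Apc arrays. With Myc deleted, Slc25a22 read 10.76, 10.87 and 11 in the Myc arrays and 11.52, 11.24 and 11.87 in the ApcMyc arrays. WT stood below all other groups. Slc25a22 rose in Myc against WT (difference 0.95, SE 0.195, adjusted p = 0.0118), a call lost without Myc replicate 3 (0.0509), and in ApcMyc against Myc (difference 0.67, SE 0.195, adjusted p = 0.0401). The latter call was lost on the deposited scores (0.0636), with median scaling (0.369), with pseudocount 1 (0.0627), with only the groups compared fitted (0.0541), without ApcMyc replicate 1 (0.0933), without ApcMyc replicate 3 (0.126), without Myc replicate 1 (0.126), without Myc replicate 2 (0.106) and without Myc replicate 3 (0.0708).

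Slc25a36, a carrier of pyrimidine nucleotides, was higher in every Myc-deleted array than in any other. Slc25a36 read 6.95, 6 and 6.08 in the WT arrays and 6.12, 5.63 and 5.71 in the Apc arrays. With Myc deleted, Slc25a36 read 7.16, 7.38 and 7.05 in the Myc arrays and 6.97, 7.11 and 7.25 in the ApcMyc arrays. It rose in Myc against WT (difference 0.85, SE 0.24, adjusted p = 0.0455). That call was lost on the deposited scores (0.0627), with pseudocount 1 (0.0761), with only the groups compared fitted (0.0915), without Myc replicate 1 (0.103), without Myc replicate 2 (0.146), without Myc replicate 3 (0.084), without WT replicate 2 (0.152) and without WT replicate 3 (0.144). Slc25a40, linked to mitochondrial glutathione import, was highest in ApcMyc. Slc25a40 read 6.47, 6.52 and 5.43 in the WT arrays and 6.62, 6.80 and 6.43 in the Apc arrays. With Myc deleted, Slc25a40 read 6.55, 6.95 and 6.76 in the Myc arrays and 7.70, 7.65 and 7.36 in the ApcMyc arrays. The ApcMyc arrays exceeded all others, and the difference from Myc did not pass (difference 0.82, SE 0.26, adjusted p = 0.0569). It passed with pseudocount 64 (adjusted p = 0.0161), without the low probe sets (0.0307), with an intensity trend (0.0451) and with only these groups fitted (0.0194). Slc25a24 and Slc25a4, which carry adenine nucleotides, averaged 4.80 ± 0.189 and 7.37 ± 0.0846 in Myc and 5.45 ± 0.264 and 7.66 ± 0.208 in ApcMyc (mean ± SD, n = 3). Neither passed in ApcMyc against Myc (adjusted p = 0.0652 and 0.513) or in Myc against WT (0.49 and 0.121). Slc25a24 passed in the former with median scaling (0.0315), and Slc25a4 in the latter without WT replicate 1 (0.019). Slc25a4 is read by a probe set of a type that can match several transcripts.

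Of the 3 carriers of activated sugars and acetyl-CoA, 2 rose and 1 fell in Myc against WT. In that comparison 9.11% of all probe sets and 28.1% of the other listed ones were called. Slc33a1 moves acetyl-CoA into the endoplasmic reticulum. Slc33a1 read 10.23, 10.08 and 10.27 in the WT arrays and 9.36, 9.39 and 9.57 in the Apc arrays. With Myc deleted, Slc33a1 read 9.34, 9.30 and 9.22 in the Myc arrays and 8.58, 9 and 8.56 in the ApcMyc arrays. Slc33a1 fell in Myc against WT (difference -0.91, SE 0.158, adjusted p = 0.00511) and in ApcMyc against Myc (difference -0.57, SE 0.158, adjusted p = 0.0319). The second call was lost on the deposited scores (0.0531), with only the groups compared fitted (0.059), without ApcMyc replicate 1 (0.111), without ApcMyc replicate 3 (0.089), without Myc replicate 1 (0.0987), without Myc replicate 2 (0.0923) and without Myc replicate 3 (0.069). Slc35a3 carries UDP-N-acetylglucosamine into the Golgi. Slc35a3 read 8.01, 7.67 and 7.75 in the WT arrays and 8.94, 8.6 and 8.38 in the Apc arrays. With Myc deleted, Slc35a3 read 8.42, 8.73 and 8.53 in the Myc arrays and 9.35, 9.02 and 9.35 in the ApcMyc arrays. WT stood below the other groups and ApcMyc above Myc without overlap. Slc35a3 rose in Myc against WT (difference 0.75, SE 0.184, adjusted p = 0.0266) and in ApcMyc against Myc (difference 0.68, SE 0.184, adjusted p = 0.029). The first call was lost without Myc replicate 1 (0.0514), without Myc replicate 2 (0.104), without Myc replicate 3 (0.071), without WT replicate 2 (0.0893) and without WT replicate 3 (0.0784). The rise in ApcMyc was lost on the deposited scores (0.053), with median scaling (0.143), without ApcMyc replicate 1 (0.0972), without ApcMyc replicate 3 (0.0773), without Myc replicate 1 (0.103) and without Myc replicate 3 (0.0852).

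Slc35c2 is a Golgi protein linked to the fucosylation of Notch. Slc35c2 read 6.29, 4.90 and 5.29 in the WT arrays and 6.44, 6.42 and 6.89 in the Apc arrays. With Myc deleted, Slc35c2 read 6.83, 6.69 and 7.10 in the Myc arrays and 6, 6.73 and 6.27 in the ApcMyc arrays. The WT mean was lowest, although WT replicate 1 lay above ApcMyc replicates 1 and 3. Slc35c2 rose in Myc against WT (difference 1.38, SE 0.312, adjusted p = 0.0184), a call lost with only the groups compared fitted (0.0517), without Myc replicate 1 (0.0512), without Myc replicate 3 (0.0701), without WT replicate 2 (0.0694) and without WT replicate 3 (0.0654). Its differences with Apc deletion were 1.09 with Myc intact and -0.54 with Myc deleted. The difference of the responses did not pass (difference -1.63, SE 0.441, adjusted p = 0.0747) but did without WT replicate 1 (adjusted p = 0.0187), with median scaling (0.049), with pseudocount 64 (0.0441) and without the low probe sets (0.0407).

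None of the 3 carriers of inorganic ions passed in ApcMyc against Myc or in Myc against WT. Slc4a4, the sodium bicarbonate cotransporter, was the 1 member in which the responses to Apc loss differed by the test of the interaction. Slc4a4 read 8.44, 8.19 and 7.95 in the WT arrays and 9.33, 9.62 and 9.44 in the Apc arrays. With Myc deleted, Slc4a4 read 7.84, 7.74 and 7.77 in the Myc arrays and 7.80, 7.71 and 7.85 in the ApcMyc arrays. The Apc arrays stood above the 9 others, the WT arrays stood above all Myc and ApcMyc arrays, and Myc and ApcMyc overlapped. The response was smaller by 1.27 with Myc deleted (difference -1.27, SE 0.223, adjusted p = 0.0207). Among the 41 probe sets 0 were called up and 1 down in the interaction, beside 1.2% up, 1.11% down and 2.32% in either direction over all probe sets, and beside 6.38% of the other listed probe sets, so the members' share (2.44%) was near the background. The ApcMyc against Apc difference that chose Slc4a4 (-1.68) is part of this contrast, so the test is not independent of the choice. The call was lost without Apc replicate 2 (0.0529), without ApcMyc replicate 2 (0.0529), without Myc replicate 1 (0.0543) and without WT replicate 2 (0.0521). The second Slc4a4 probe set was dim (mean 5 in WT and 4.84 in Apc), and its interaction was -0.15. Slc20a1 takes up phosphate. Slc20a1 read 9.13, 9 and 8.84 in the WT arrays and 8.55, 9.66 and 10.09 in the Apc arrays. With Myc deleted, Slc20a1 read 10.05, 9.51 and 10.18 in the Myc arrays and 10.16, 11.20 and 10.41 in the ApcMyc arrays. Apc arrays spread from below WT to above it, and neither comparison passed (difference 0.68, SE 0.361, adjusted p = 0.25 for ApcMyc against Myc). In Myc against WT the adjusted p was 0.131; it was 0.0476 with median scaling and 0.039 with only these groups fitted. Slc26a5, the motor protein of cochlear hair cells, was dim. Slc26a5 read 4.82, 4.43 and 4.61 in the WT arrays and 5.43, 4.28 and 5.29 in the Apc arrays. With Myc deleted, Slc26a5 read 4.26, 5.18 and 4.40 in the Myc arrays and 4.15, 4.17 and 4.13 in the ApcMyc arrays. The 3 ApcMyc arrays lay close to the lower limit of 4, and the groups Apc and Myc spread over more than 0.9.

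**Figure D4:**
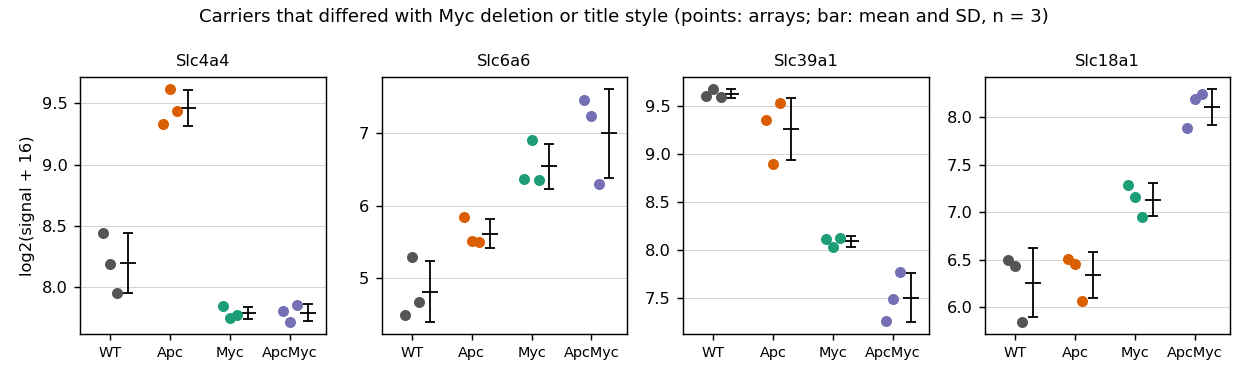
Level in each array, log2(signal + 16), of Slc4a4, Slc6a6, Slc39a1 and Slc18a1; points are arrays, bars mean and SD of 3, and each panel has its own axis. Slc4a4 is high only in the 3 Apc arrays (9.33 to 9.62), while Slc6a6 and Slc18a1 are higher and Slc39a1 is lower in all 6 Myc-deleted arrays.

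The comparison of Myc with WT asks what Myc loss does alone, and it cannot be told apart from the title styles. Of 41 probe sets 10 rose and 3 fell, or 31.7% beside 9.11% of all probe sets (4.05% up and 5.05% down) and 28.1% of the other listed probe sets; the WT arrays had served to choose the members. The number that rose was 5, 6 and 5 without Myc replicates 1, 2 and 3, and 6 and 5 without WT replicates 2 and 3. By gene 10 rose, namely Slc6a6, Slc16a5, Slc35c2, Slc18a2, Slc16a10, Slc25a22, Slc18a1, Slc25a36, Slc41a3 and Slc35a3, and 2 fell, Slc39a1 and Slc33a1. Myc and WT arrays did not overlap in 22 of the 37 genes (33.3% of all probe sets). In 8 of the 37 genes all Myc and ApcMyc arrays lay on one side of all WT and Apc arrays. Over all probe sets 7.8% did. The 8 were Slc6a6, Slc39a1, Slc33a1, Slc18a1, Slc18a2, Slc25a36, Slc15a2 and Slc4a4. This separation too includes that of ApcMyc from WT, for which nearly all members were chosen, and its share among the other listed probe sets was not computed. ApcMyc against Apc shares no array with Myc against WT, and the sign was the same in 26 of 37 genes (70.3%, beside 63.1% of all probe sets). Members were chosen for ApcMyc against WT. The WT arrays enter Myc against WT and the ApcMyc arrays enter ApcMyc against Apc, so the choice favours the same sign. The share among the other listed probe sets was not computed. In ApcMyc against Apc 9 of the 41 probe sets were called up and 4 down (31.7%). The background was 20.9% (10.5% up and 10.4% down), and the members' share was below the 44.4% of the other listed probe sets. The number up was 5 without Apc replicate 2 or without ApcMyc replicate 1. On the deposited scores the split was 6 up and 6 down, and with median scaling 6 and 5.

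**Figure D5:**
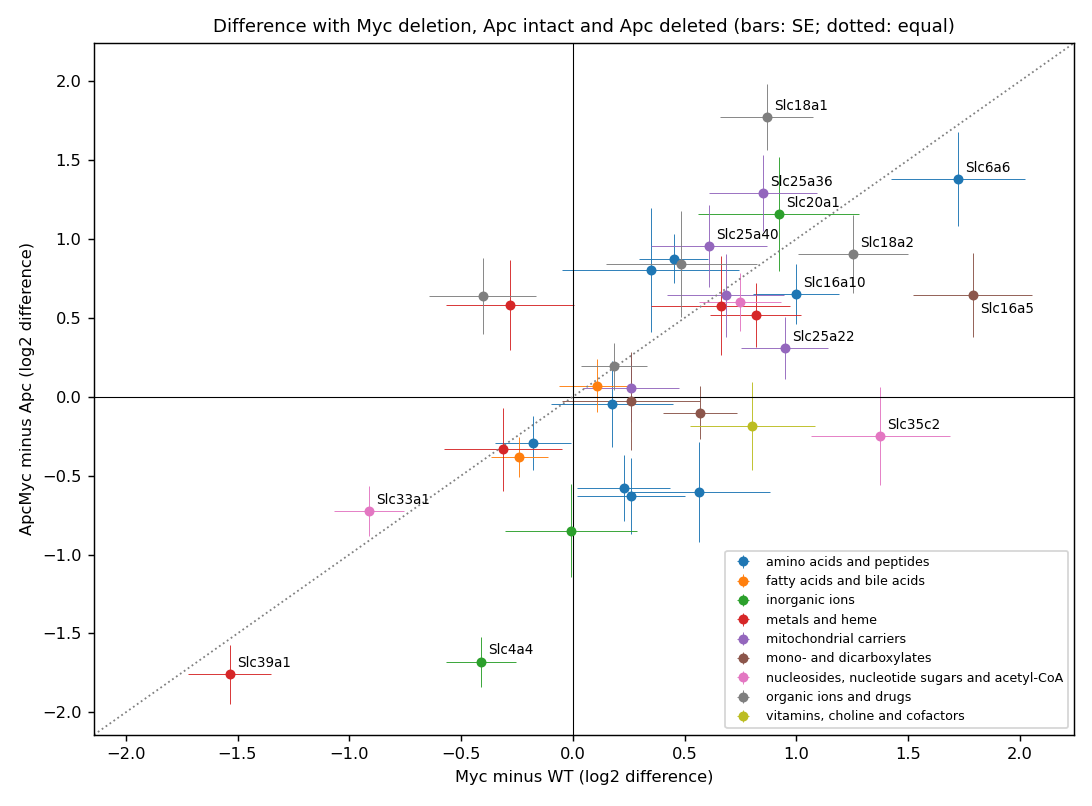
Scatter of the difference Myc minus WT (x axis, log2) against ApcMyc minus Apc (y axis, log2) for 36 genes, coloured by substrate, with SE bars and a dotted line of equal differences; genes past 0.9 on either axis are labelled. Slc6a6 lies at 1.72 and 1.38, Slc39a1 at -1.53 and -1.76, and Slc4a4 at -0.41 and -1.68, away from the dotted line.

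In ApcMyc against WT, the comparison that chose nearly all members, 21 of the 41 probe sets were called up and 13 down, beside 24.8% of all probe sets (12.2% up and 12.6% down) and 85.5% of the other listed ones. The members nearest to the authors' threshold had a SAM statistic of 1.689 (Slc22a5) and -1.711 (Slc27a5) in the authors' deposited table, whose smallest value for any probe set was 1.674 in size; carriers just outside it are not named. Differences in this comparison ran from -2.63 for Slc22a7 to 5.16 for Slc22a3. Apc against WT called 13 of the 41 up and 11 down, or 58.5% beside 15.6% of all probe sets and 47.7% of the other listed ones. A group of 9 dim members (Slc15a1, Slc15a2, Slc38a1, Slc7a11, Slc26a5, Slc30a2, Slc39a10, Slc25a24 and Slc18a2) had every group mean below the array median of 6.29. Of these none passed in ApcMyc against Myc, and Slc18a2 did in Myc against WT.

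Other liver transporters were taken from a list of 32 genes, of which the lists name 12. In ApcMyc against Myc 6 rose and 3 fell, and in Apc against WT 6 were called up and 2 down. These 12 carry a name only because the same lists hold them, so their shares stand beside the 46.4% and 47.7% of listed probe sets called in these comparisons as well as the 13.4% and 15.6% of all probe sets. Rhbg, an ammonium transporter of pericentral hepatocytes, rose by 3.02 (adjusted p = 1.99e-06), the organic anion uptake carrier Slco1a4 by 2.40 (2.48e-05), the export pumps Abcc4 by 2.16 (0.00331) and Abcc2 by 1.57 (0.000225), Atp1b1, a sodium pump subunit, by 1.37 (0.0021), and Aqp11 by 0.77 (0.0173). The water channel Aqp8 fell by 3.47 log2 units (adjusted p = 0.000316), the uptake carrier Slco1a1 fell by 2.86 (0.00336) and the prostaglandin carrier Slco2a1 fell by 1.58 (0.000426). In the interaction Rhbg alone of the 12 was called (-1.13, adjusted p = 0.0363). Abcc2 and Aqp11 are read by probe sets of a type that can match several transcripts.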

How the data were processed

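Liver RNA was measured on 12 arrays, 1 per sample; the labels name no array type, scanner software or detection calls. The authors deposited a score per probe set and array, on a log scale per the file headers of the SAM lists; its mean near 0 and SD near 1 in every array show that arrays were centred and scaled. The lists hold a SAM score per probe set (2 unpaired classes, 100 permutations, per the file headers). Linear signals were recovered from the lowest scores, which step as logs of a grid of 0.1 above a floor of 1 (20 iterations; 100.0% of signals below 1000 within 0.01 of the grid in every array). Quantile normalization over 32176 probe sets followed, and log2(signal + 16) was used. The 61 controls were left out, and the other 32115 entered 1 limma model (version 3.58.1, R 4.3.3) of 4 group means. P-values are two-sided, adjusted by Benjamini and Hochberg over all probe sets within a comparison, and called under 0.05. The plan assumed this recovery of signals. The plan fixed which members get values by array: the 6 with the smallest p in ApcMyc against Myc, Myc against WT and the interaction, the 5 highest and 5 lowest in the other 3 comparisons, and the brightest and most responsive of each substrate class. For genes with 2 probe sets (4 genes), the brighter stands for the gene. All 37 symbols matched RefSeq symbols of GRCm38.p6. The values of 1 member are not reported here, and it is counted but not plotted. Members, substrate classes and lists were chosen with earlier results of these data known. Python 3.11.15, NumPy 2.4.6, pandas 2.3.3 and matplotlib 3.10.9 did the rest. Precision is limited by the number of arrays. The fit was tested on simulated data in which 200 of 32115 probe sets were changed in ApcMyc. In ApcMyc against Myc it recovered 35.5% of changes of 1 log2 unit, 88.0% of 2 and 98.5% of 3. False calls numbered 7, 10 and 11. Far more probe sets (4302) were called in the data, so these shares need not hold there. A difference that did not pass is not shown to be absent.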

Additional observations from a re-analysis of the deposited data

Results flagged for a closer look

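In Slc4a4 alone of the members the response to Apc loss differed by test between livers with Myc intact and Myc deleted, with an interaction of -1.27 (SE 0.223, adjusted p = 0.0207, n = 3 arrays per group). The share of members called, 2.44% of 41 probe sets, was near the 2.32% of all probe sets and below the 6.38% of the other listed ones. Slc4a4 was higher in 3 of 3 Apc arrays than in any WT array, while the Myc and ApcMyc arrays overlapped. Only 1 of its 2 probe sets showed this, the other giving -0.15, and this member had been chosen for its ApcMyc against Apc difference. The adjusted p was 0.0529 without Apc replicate 2 or without ApcMyc replicate 2, 0.0543 without Myc replicate 1 and 0.0521 without WT replicate 2.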

How the results depend on the processing

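Counts of called probe sets among the 41 were recomputed with the deposited scores, median scaling, pseudocounts 1 and 64, an intensity trend, the low probe sets left out, only the groups compared, and each array left out in turn. In the interaction the number down was 4 with median scaling (Slc4a4, Slc16a7, Slc25a22 and Slc35c2), 2 with pseudocount 64 and 2 without the low probe sets, against 1, and with pseudocount 64 there was 1 up (Slc18a1), against 0. In ApcMyc against Apc the number up was 5 with only the groups compared, against 9. Without single arrays the counts up and down ran from 8 to 10 and 9 to 11 in ApcMyc against Myc, 5 to 11 and 3 to 3 in Myc against WT, 0 to 0 and 0 to 2 in the interaction, 11 to 13 and 9 to 11 in Apc against WT, 5 to 8 and 3 to 5 in ApcMyc against Apc, and 18 to 22 and 11 to 13 in ApcMyc against WT. WT and Apc titles share replicate numbers, but residuals of same-numbered arrays correlated at 0.0627, 0.00557 and -0.0122, so the numbers were not taken as pairs; with the replicate block and only these groups fitted, the number down in Apc against WT was 6, against 11. The cause of these shifts was not tested. No called difference of a single gene reversed its sign under the alternatives run.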
